A study of Mus musculus with 11 samples.

Results

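The 9 genes described here encode receptors that steer migrating blood cells: Ccr1, Ccr2, Ccr6, Ccr9, Cx3cr1, Cxcr4 and Cxcr2 for chemokines, and Gpr183 and P2ry10 for lipids. They were taken from the 19933 genes that had at least 1 probe set with a single gene symbol in the array annotation. Each of the 9 had 1 such probe set, so no choice between probe sets was needed. A level below is the log2 of the deposited intensity of that probe set. Levels of different genes come from different probes and are not set against each other.

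All 9 are seven-pass membrane receptors that signal through heterotrimeric G proteins, mostly of the inhibitory class, and turn a gradient of ligand outside the cell into directed movement. Cxcr4 holds blood cell progenitors in the bone marrow by its ligand Cxcl12, and Gpr183 (also called EBI2) senses oxysterols and positions CD4+ dendritic cells in the spleen. Chemokine receptors are shut off by G protein receptor kinases, arrestins and RGS proteins, and some receptors without G protein signalling remove chemokines from the tissue.

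Messenger RNA of sorted mouse cells was measured on 11 single-colour Affymetrix arrays, 1 per genotype and cell type. The mice were of the C57Bl/6 background and were studied at steady state. KO mice were Zbtb46gfp/gfp, Het mice Zbtb46 gfp/+ and WT mice Zbtb46+/+, so that KO and Het cells also carry a gfp reporter at Zbtb46 (the gene of a zinc finger transcription factor that marks classical dendritic cells, DC). CD4+ DC came from the spleens of KO and WT mice and were sorted for CD4, CD11b, CD172, CD11c and MHC class II and against B220 and CD8. From bone marrow of KO, Het and WT mice 3 lineage-negative, CD117-positive stages of erythroid development were sorted, all without CD41 and CD16/32. Pre MegE cells carry CD150 and no CD105, Pre CFU-E cells CD150 with low CD105, and CFU-E cells CD105 and no CD150. It is not stated whether 1 mouse gave all stages of its genotype or whether mice were pooled, so p-values measure the spread between these arrays. The number of arrays limits the precision.

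Zbtb46 lay at 8.02 in KO DC, against 9.67 in WT DC. Among progenitors it lay, in KO, Het and WT cells, at 7.71, 7.67 and 7.52 in Pre MegE, 7.70, 8.30 and 8.14 in Pre CFU-E, and 7.50, 8.62 and 8.87 in CFU-E. KO was thus the lowest genotype at the 2 later stages but not in Pre MegE cells, where all 3 arrays were below the array median, and where its probes lie relative to the inserted gfp is not known here. All 14 of 14 listed CD4+ DC markers were at or above the array median in KO DC and in WT DC. Arrays of the same stage correlated at 0.9954 to 0.9985 over probe sets and the DC pair at 0.9943, whereas DC and progenitor arrays correlated at 0.861 to 0.908. Array medians lay between 195.66 and 218.37 on the linear scale. In bulk samples such as these, fewer cells of a type and less RNA per cell cannot be told apart.

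The 250 bases before the annotated start of 5 of the genes are given first. Of these, P2ry10, Gpr183 and Ccr9 had the 3 largest differences of DC over progenitors among the described receptors. Cxcr4 was the receptor above the median on every array, and Cxcr2 was lower in DC. The sequences are RefSeq's, of build GRCm38.p6, 5′ to 3′ on the strand of the gene. Capitals mark matches, on either strand, to 4 short motifs. They are AGATAA, read by the erythroid zinc finger factors of the Gata1 family, the AP-1 motif with the letters TGANTCA, the core of sites for the myeloid factor PU.1 with the letters GAGGAA, and the element of many promoters known as TATA box, spelled TATAAA. P2ry10 lies on chrX:107088242-107088491 (plus strand), Gpr183 on chr14:121965194-121965443 (minus strand) and Ccr9 on chr9:123766961-123767210 (plus strand). Cxcr4 lies on chr1:128592300-128592549 (minus strand) and Cxcr2 on chr1:74153744-74153993 (plus strand).
P2ry10: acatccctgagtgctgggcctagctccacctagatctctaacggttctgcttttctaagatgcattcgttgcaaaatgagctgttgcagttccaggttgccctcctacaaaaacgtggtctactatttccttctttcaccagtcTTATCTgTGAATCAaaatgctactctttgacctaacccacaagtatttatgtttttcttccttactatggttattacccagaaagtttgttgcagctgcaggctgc
Gpr183: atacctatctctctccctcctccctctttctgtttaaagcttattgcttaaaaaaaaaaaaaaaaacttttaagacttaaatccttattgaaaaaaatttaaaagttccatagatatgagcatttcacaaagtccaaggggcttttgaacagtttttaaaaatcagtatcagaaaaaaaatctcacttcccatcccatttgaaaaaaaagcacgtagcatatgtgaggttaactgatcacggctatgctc
Ccr9: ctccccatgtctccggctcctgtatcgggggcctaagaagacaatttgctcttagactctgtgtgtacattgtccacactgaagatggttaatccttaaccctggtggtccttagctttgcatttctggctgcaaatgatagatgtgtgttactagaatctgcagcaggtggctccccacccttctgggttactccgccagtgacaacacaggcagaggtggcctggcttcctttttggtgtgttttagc
Cxcr4: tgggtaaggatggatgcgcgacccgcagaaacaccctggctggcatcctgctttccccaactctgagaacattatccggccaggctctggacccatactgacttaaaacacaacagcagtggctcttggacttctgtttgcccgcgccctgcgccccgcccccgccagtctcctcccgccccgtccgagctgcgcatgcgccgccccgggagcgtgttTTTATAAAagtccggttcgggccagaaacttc
Cxcr2: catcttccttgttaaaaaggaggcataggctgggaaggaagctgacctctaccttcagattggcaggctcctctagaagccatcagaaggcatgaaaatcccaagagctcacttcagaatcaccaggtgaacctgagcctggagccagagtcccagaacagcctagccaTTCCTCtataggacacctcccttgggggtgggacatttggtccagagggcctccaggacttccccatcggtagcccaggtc
RefSeq lists a second start for P2ry10, whose window chrX:107089083-107089332 holds GAGGAA on the opposite strand 29 to 24 bases before it. The P2ry10 window printed above holds AGATAA on the opposite strand, 106 to 101 bases before the start, and TGANTCA on its own strand, 99 to 93 bases before it. The Cxcr4 window holds TATAAA on both strands in overlapping positions between 32 and 25 bases before the start, and the Cxcr2 window holds GAGGAA on the opposite strand 81 to 76 bases before it. The Gpr183 and Ccr9 windows hold none of these letters. Over 27025 RefSeq promoter windows of the same length, AGATAA was found in 10.2%, TGANTCA in 6.87%, GAGGAA in 23.1% and TATAAA in 13%. A match describes letters in a window and does not show that a factor binds there. The windows also differ in base composition: Cxcr4 has 61.2% G and C with 19 CpG dinucleotides and Gpr183 has 32% with 2, against medians of 52% and 6 over all windows.

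CD4+ DC carried far more message than the progenitors for most of these receptors. P2ry10, Gpr183, Ccr9, Cxcr4, Ccr6, Cx3cr1 and Ccr2 were higher in DC, by 2.87-fold (Ccr2) to 96.9-fold (P2ry10), and Cxcr2 was lower. For 7 of the 9 genes both DC arrays lay above all 9 progenitor arrays, which was so for 26.9% of all genes, and for Ccr1 both lay below all 9, which was so for 39.2%. The fit of cell type and genotype over 11 arrays (limma, two-sided, Benjamini-Hochberg adjustment over all genes tested) called 8 of the 8 receptors that passed the filter at an adjusted p under 0.05. In that comparison 89.9% of 11560 genes were called, 25.3% of them higher and 64.6% lower in DC, as shares of the genes tested. The filter asked for a level no lower than the array's median probe set on 2 or more of the arrays fitted. Ccr2, Ccr6, Ccr9 and P2ry10 passed only through the 2 DC arrays and so had to differ. Cxcr2 passed only through its 3 Pre MegE arrays, which tilts its comparison toward a lower level in DC. The median difference over all genes tested was -0.59 on the log2 scale, -0.53 with arrays centred on their medians and -0.10 after quantile normalization, and all 8 kept their direction and their call under both scalings.

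**Figure D1:**
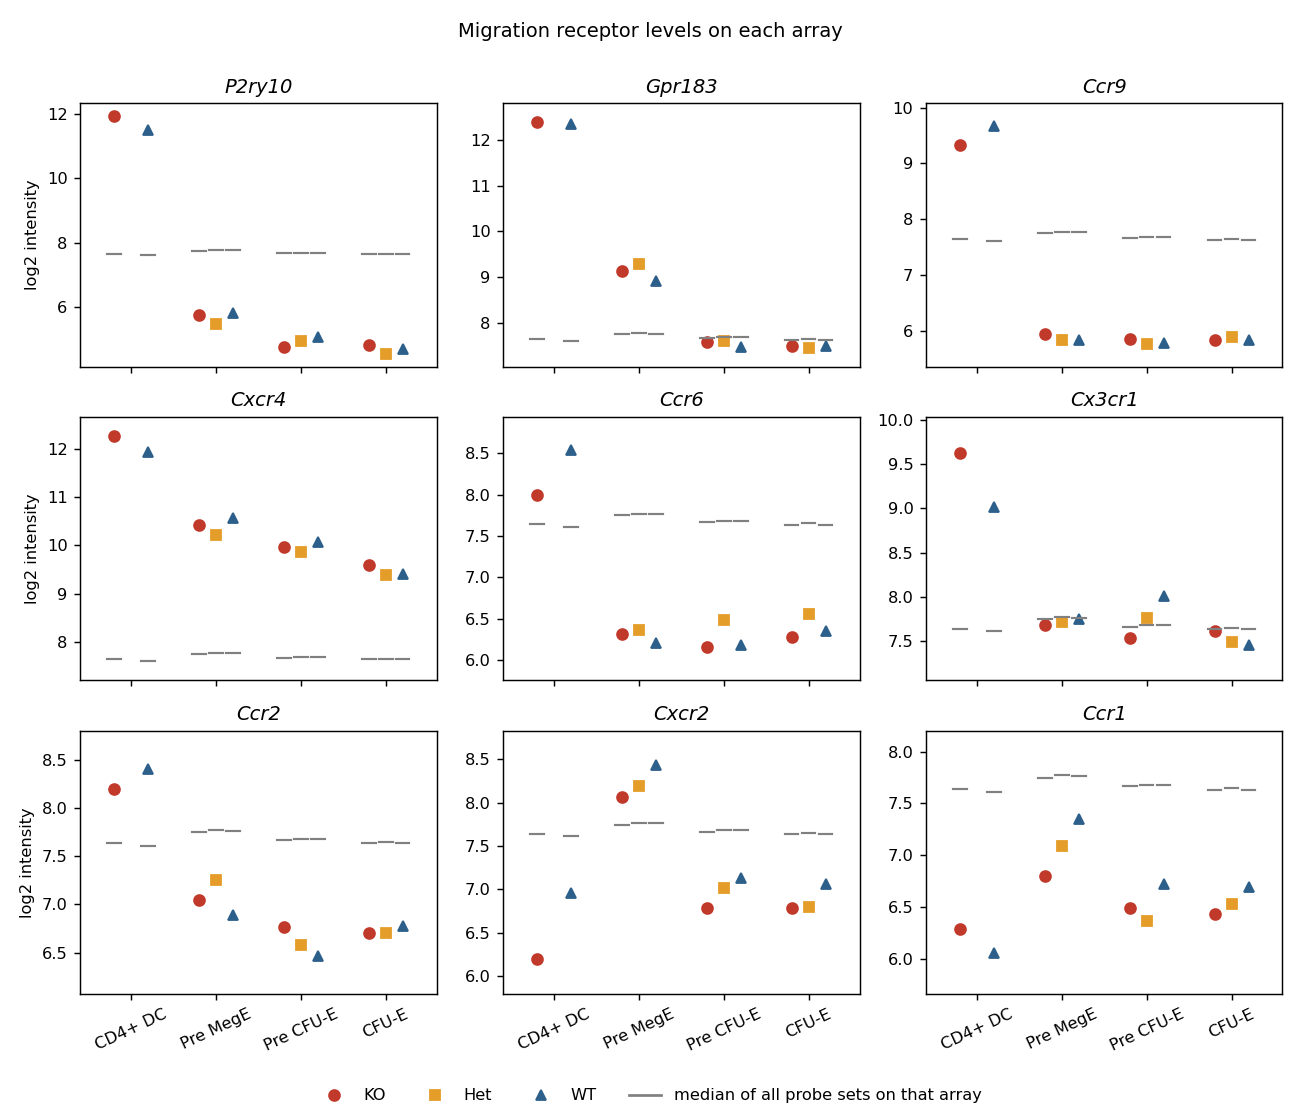
Level (log2 intensity) of each receptor on each of the 11 arrays, with CD4+ DC at the left and the 3 progenitor stages after it, and KO, Het and WT from left to right within a cell type. Grey lines give the median of all probe sets on that array. Both DC arrays lie above every progenitor array for 7 receptors, and Ccr1 stays below the grey lines on all 11 arrays.

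P2ry10, a receptor for lysophosphatidylserine best known from lymphocytes, had levels of 11.94 in KO DC and 11.53 in WT DC. Its levels in KO, Het and WT cells, in that order, were 5.72, 5.47 and 5.81 in Pre MegE, 4.75, 4.94 and 5.06 in Pre CFU-E, and 4.81, 4.52 and 4.66 in CFU-E. Both DC arrays stood far apart from all progenitor arrays, which lay below the array median throughout. The difference of DC over progenitors was 6.60 ± 0.122 (SE, limma adjusted p = 4.8e-12). Whether values below the array median hold signal of the gene or background was not tested, for this gene or any other here, and folds against such values may be understated. The paralogous gene P2ry10b begins 43953 bases beyond the end of P2ry10 on chromosome X. It averaged 9.83 in DC, against 5.32 in Pre MegE, 4.91 in Pre CFU-E and 4.92 in CFU-E cells, and the difference of DC over progenitors was 4.81 (limma adjusted p = 5.49e-12).

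Gpr183, the oxysterol receptor, had levels of 12.40 in KO DC and 12.36 in WT DC. In KO, Het and WT cells its levels were 9.13, 9.30 and 8.92 in Pre MegE, 7.58, 7.61 and 7.48 in Pre CFU-E, and 7.49, 7.44 and 7.50 in CFU-E. DC were highest and Pre MegE cells intermediate without overlap, and the arrays of the 2 later stages overlapped with each other. DC exceeded progenitors by 4.36 ± 0.0746 (SE, adjusted p = 2.91e-12), a 20.6-fold difference, and exceeded Pre MegE cells alone by 3.30 (9.83-fold). Gpr183 lies inside the span of Ubac2, which runs on the opposite strand. Ubac2 averaged 11.29 in DC, 10.65 in Pre MegE, 10.62 in Pre CFU-E and 10.52 in CFU-E cells.

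Cxcr4, the Cxcl12 receptor, had levels of 12.25 in KO DC and 11.94 in WT DC. In KO, Het and WT cells its levels were 10.42, 10.21 and 10.56 in Pre MegE, 9.96, 9.87 and 10.06 in Pre CFU-E, and 9.60, 9.39 and 9.41 in CFU-E. It was above the array median on all 11 arrays, and its levels were highest in DC, then Pre MegE, then Pre CFU-E and lowest in CFU-E cells, with no overlap between neighbours. DC exceeded progenitors by 2.09 ± 0.0885 (SE, adjusted p = 1.62e-09), which is 4.27-fold.

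Ccr9, the Ccl25 receptor known for homing of T cells to the gut, had levels of 9.32 in KO DC and 9.67 in WT DC. The 9 progenitor arrays lay between 5.76 and 5.95, all below the array median and with overlap between stages. DC exceeded progenitors by 3.65 ± 0.083 (SE, adjusted p = 1.89e-11), which is 12.5-fold. Ccr6, the Ccl20 receptor found on B cells and some DC, had levels of 7.99 in KO DC and 8.54 in WT DC, against 6.15 to 6.56 on the 9 progenitor arrays. Its stages overlapped and lay below the array median, and DC exceeded them by 2.01 ± 0.106 (SE, adjusted p = 9.91e-09). Of 7 measured B cell markers, 4 were at or above the median in KO DC and 4 in WT DC. Their summed intensity was 3944 in KO DC and 5126 in WT DC, against 1660 to 3570 on the progenitor arrays. Among them Cd22 (3.66), Blk (2.89) and Ms4a1 (2.56) were higher in DC than in progenitors, Ebf1 (-1.89), Pax5 (-0.78) and Cd79a (-0.50) were lower, and Cd79b (-0.15) was not called. The part of B cells in the Ccr6 level was not tested.

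Ccr2, the Ccl2 receptor that lets monocytes leave the bone marrow, had levels of 8.20 in KO DC and 8.40 in WT DC. In KO, Het and WT cells its levels were 7.05, 7.26 and 6.90 in Pre MegE, 6.77, 6.57 and 6.47 in Pre CFU-E, and 6.71, 6.70 and 6.78 in CFU-E. Both DC arrays were above all progenitor arrays, and DC exceeded progenitors by 1.52 ± 0.103 (SE, adjusted p = 7.81e-08). Cx3cr1, the fractalkine receptor of monocytes and some DC, had levels of 9.63 in KO DC and 9.01 in WT DC. In KO, Het and WT cells its levels were 7.68, 7.72 and 7.75 in Pre MegE, 7.53, 7.76 and 8.004 in Pre CFU-E, and 7.61, 7.49 and 7.46 in CFU-E. The progenitor arrays lay close to the array medians of 7.63 to 7.77, and DC exceeded them by 1.65 ± 0.151 (SE, adjusted p = 1.16e-06). Of 9 measured monocyte and macrophage markers, 7 were at or above the median in KO DC and 8 in WT DC. Their summed intensity was 21554 in KO DC and 20570 in WT DC, against 3421 to 9000 on the progenitor arrays. Lyz2 (12.85), Adgre1 (12.36) and Csf1r (11.92) had the highest DC means of the list, so the DC sums rest mainly on them. Of the 8 tested, 7 were higher in DC than in progenitors and F13a1 (-1.59) was lower. The part of these markers in the Ccr2 and Cx3cr1 levels was not tested.

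Cxcr2, the receptor for Cxcl1, Cxcl2 and Cxcl5 that draws neutrophils out of the marrow, had levels of 6.19 in KO DC and 6.96 in WT DC. In KO, Het and WT cells its levels were 8.07, 8.19 and 8.43 in Pre MegE, 6.79, 7.02 and 7.13 in Pre CFU-E, and 6.79, 6.80 and 7.06 in CFU-E. Pre MegE cells were above the median on all 3 arrays and every other array was below it, with the WT DC value inside the range of the later stages. DC differed from the mean of the progenitors by -0.80 ± 0.0904 (SE, adjusted p = 7.08e-06) and from Pre MegE cells by -1.67 (adjusted p = 5.89e-08). Cxcr2 passed the filter only through its 3 Pre MegE arrays and so had to differ from DC there. Against Pre MegE cells alone 8 of 8 receptors were called, where 88.3% of genes were, and 5 of the 8 (Cxcr2 and the 4 that passed through DC alone) had to differ. Ccr1, a receptor for Ccl3, Ccl5, Ccl6 and Ccl9 on neutrophils and monocytes, had levels of 6.29 in KO DC and 6.07 in WT DC. In KO, Het and WT cells its levels were 6.81, 7.09 and 7.36 in Pre MegE, 6.49, 6.37 and 6.73 in Pre CFU-E, and 6.44, 6.53 and 6.69 in CFU-E. It was below the array median on all 11 arrays and passed neither filter. With all 19933 genes in the fit, of which 77.9% were called and 44.4% were lower, Ccr1 was lower in DC (log2 difference -0.57, adjusted p = 0.00103).

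**Figure D2:**
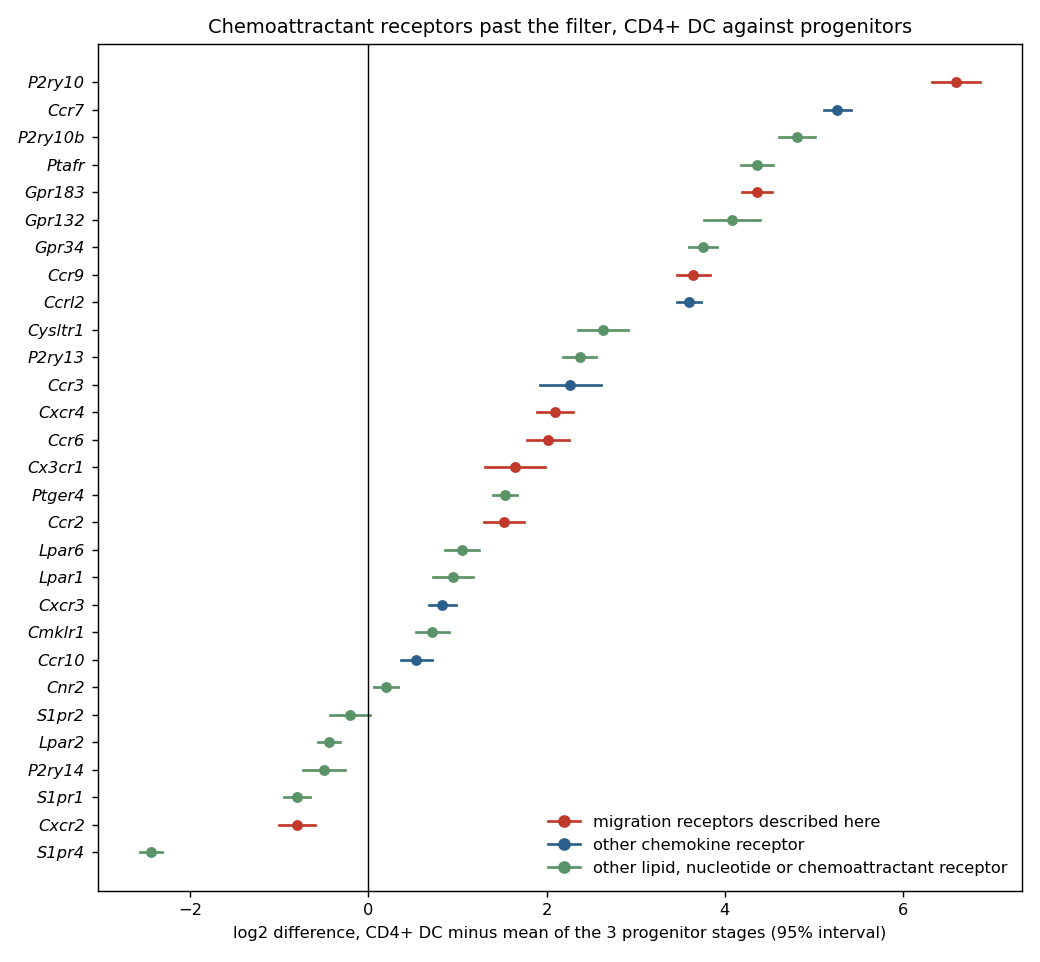
Log2 difference between CD4+ DC and the mean of the 3 progenitor stages, with 95% intervals, for the 8 migration receptors and the 21 other chemoattractant receptors that passed the filter, sorted by size. P2ry10 (6.60) leads, followed by Ccr7 (5.26) and P2ry10b (4.81), and Cxcr2 (-0.80) is the only migration receptor below 0.

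Of 16 measured other chemokine receptors 5 passed the filter. All 5 were higher in DC, and Ccr3, Cxcr3 and Ccr10, whose progenitor means lay below the array medians, owed their place to the DC arrays. Among the 5 were Ccr7, which guides DC to lymph nodes (5.26), Ccrl2, a non-signalling receptor (3.60), Ccr3 (2.27) and Cxcr3 (0.83). Of 26 measured receptors for other lipids, nucleotides and attractants 16 passed the filter, of which 11 were higher and 4 lower. The higher ones included Ptafr, the platelet-activating factor receptor (4.36), Gpr132 (4.08) and Gpr34, another lysophosphatidylserine receptor (3.75). The medians were 2.27 and 1.002 for the genes of these lists that passed the filter, against -0.59 over all genes tested, and genes that passed through DC alone had to be higher. These counts did not change with either scaling.

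Enzymes that make or remove the lipid ligands differed in direction. Cyp27a1, which hydroxylates cholesterol, was higher in DC (4.42), as was Abhd12, which degrades lysophosphatidylserine (1.43). Hsd3b7, which inactivates the oxysterol ligand of Gpr183, was lower (-1.86), as was Abhd16a, which makes phosphatidylserine into lysophosphatidylserine (-1.34). Ch25h, Cyp7b1 and Pla1a did not pass the filter. Of 9 tested chemokines that bind the described receptors, 7 were higher and 2 lower in DC, with Ccl3 (5.04), Ccl5 (3.83), Ccl2 (2.53) and Ccl6 (2.08) showing the largest differences. Under either scaling 1 in place of 2 was lower.

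Of 20 genes for G protein signalling and leukocyte motility, 14 were higher and 4 lower in DC, which became 17 and 2 after quantile normalization. The largest differences were for Myo1f (3.60), Pik3r5 (3.59), Elmo1 (2.98) and the Rac activator Prex1 (2.09). Of 11 desensitisation genes 7 were higher and 3 lower (7 and 2 under either scaling), led by Rgs2 (4.25), Grk3 (3.91) and Rgs1 (3.21), while the arrestin gene Arrb1 was lower (-1.80). The medians of these lists were 0.52 and 0.24, against -0.59 over all genes tested, of which 25.3% were higher and 64.6% lower.

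Along the erythroid stages 3 of the 4 tested receptors fell, Gpr183 and Cxcr2 mainly at the first step and Cxcr4 at both. Between Pre MegE and Pre CFU-E, Gpr183 fell by 1.56 ± 0.0737, Cxcr2 by 1.25 ± 0.0539 and Cxcr4 by 0.43 ± 0.0707 on the log2 scale (SE, limma adjusted p = 2.09e-07, 1.2e-07 and 0.000487 in that order), each in all 3 genotypes. The additive fit of stage and genotype on the 9 progenitor arrays had passed 4 of the 9 receptors, of which it called these 3, all lower in Pre CFU-E. In it 66.3% of 10701 genes were called and 29.3% were lower. Cxcr2 and Gpr183 passed only through their Pre MegE arrays and had to differ, whereas Cxcr4 was above the median on every array. Cx3cr1 passed only through its WT and Het Pre CFU-E arrays and differed by 0.05 (95% interval -0.17 to 0.268, adjusted p = 0.679).

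Ccr1, Ccr2 and P2ry10 were tested only with all 19933 genes in the fit, where 38.4% of genes were called and 17.9% were lower. There Ccr1 fell by 0.55 (adjusted p = 0.000455), Ccr2 by 0.46 (adjusted p = 0.00311) and P2ry10 by 0.75 (adjusted p = 0.000242), each below the array median at both stages. Ccr6 (-0.02) and Ccr9 (-0.08) did not pass. The 9 listed neutrophil markers moved with Cxcr2 and Ccr1: all 9 were at or above the median in Pre MegE cells of each genotype. In the filtered fit, where 29.3% of genes were lower, all 9 fell at the first step with a median of -0.92. Their summed intensities were 26841, 32000 and 31226 in KO, Het and WT Pre MegE cells, 15460 to 18725 in Pre CFU-E, 13068 to 16452 in CFU-E and were 3580 in KO DC and 2002 in WT DC. The fall at the first step was not particular to neutrophil markers. All tested stem and multipotent progenitor (6), megakaryocyte (5) and eosinophil, mast cell and basophil markers (6) also fell. So did all tested B cell (4) and monocyte and macrophage markers (3). Of 8 tested CD4+ DC markers 6 fell, and the 1 tested NK cell marker fell. Of 4 tested plasmacytoid DC markers 1 rose and 1 fell (0 fell under either other scaling). In contrast, 5 of 7 erythroid markers rose and 2 fell (1 under either other scaling), and 0 of 3 T cell markers fell. The part of neutrophil transcripts in the Cxcr2 and Ccr1 levels was not tested.

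At the second step, CFU-E against Pre CFU-E, 1 of the 4 receptors was called, where 44% of genes were and 25.3% were lower. Cxcr4 fell by a further 0.50 ± 0.0707 (SE, adjusted p = 0.000399), in all 3 genotypes. Cxcr2 differed by -0.10 (95% interval -0.218 to 0.0253) and Gpr183 by -0.08 (-0.246 to 0.0878), with adjusted p of 0.179 and 0.419. Cx3cr1 differed by -0.24 (adjusted p = 0.0698), by 0.08 in KO, -0.26 in Het and -0.55 in WT. Without the KO Pre CFU-E array its difference was -0.37 (adjusted p = 0.00711), and without the KO CFU-E array it was -0.36 (adjusted p = 0.0105). Since Cx3cr1 passed the filter only through its WT and Het Pre CFU-E arrays, the filter tilts its difference at this step downward. Without the KO Pre CFU-E array only those arrays stood for that stage, and without either of them Cx3cr1 was not tested. With all genes in the fit (22.6% called), none of Ccr1, Ccr2, Ccr6, Ccr9 and P2ry10 passed (log2 differences of -0.25 for P2ry10 to 0.12 for Ccr6).

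Over the whole span, CFU-E against Pre MegE, Gpr183 fell by 1.64 (adjusted p = 4.65e-08), Cxcr2 by 1.35 (2.12e-08) and Cxcr4 by 0.93 (1.62e-06). These are 3 of 4 receptors tested, where 76.6% of genes were called and 35.1% were lower. Gpr183 and Cxcr2, which passed only through their Pre MegE arrays, had to be lower in CFU-E cells, and Cxcr4 did not. Cx3cr1 differed by -0.19 (adjusted p = 0.0937), but it was called without the KO Pre CFU-E array (-0.19, adjusted p = 0.0306) or when the KO CFU-E array was left out (-0.31, adjusted p = 0.0114). With all genes in the fit (51.4% called, 21.8% lower), P2ry10 fell by 1.002 (adjusted p = 2.31e-05), Ccr1 by 0.53 (0.000397) and Ccr2 by 0.34 (0.0126), and Ccr6 (0.10) and Ccr9 (-0.02) did not pass.

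**Figure D3:**
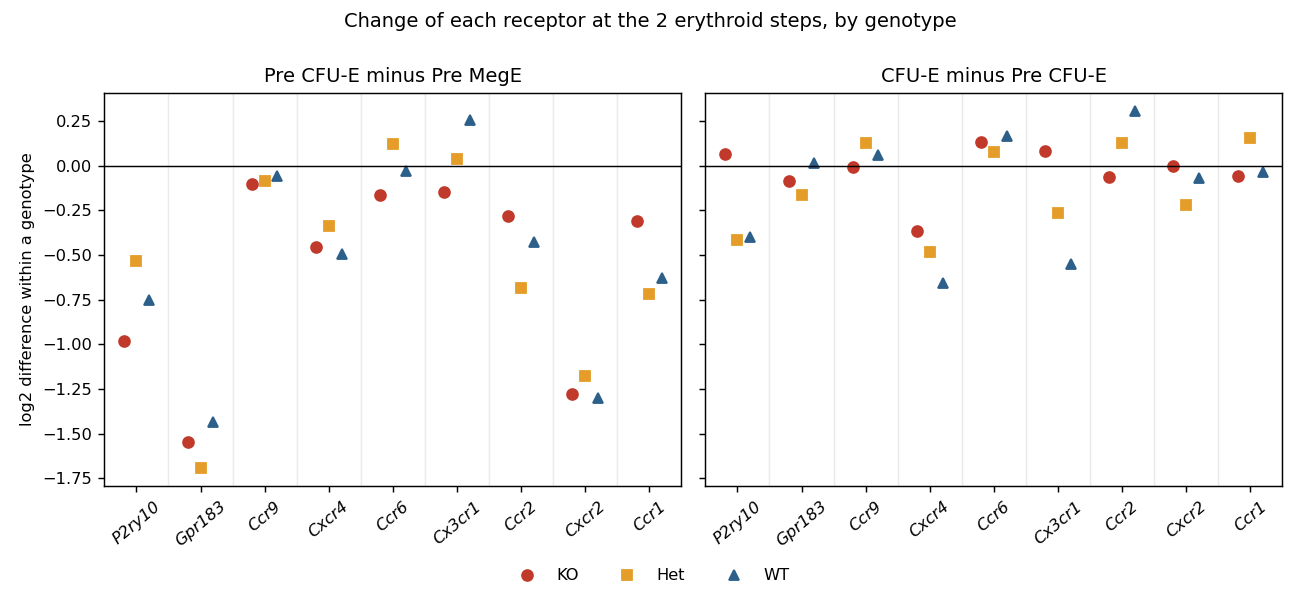
Log2 difference of each receptor at the 2 erythroid steps, computed within KO, Het and WT mice. Gpr183 and Cxcr2 drop by over 1 in every genotype at the first step and stay near 0 at the second, whereas Cxcr4 is below 0 in every genotype at both.

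Signalling, desensitisation and lipid receptor genes around the receptors mostly fell over the same stages. Over all genes tested, 29.3% fell at the first step, 25.3% at the second and 35.1% over the span. Of 20 signalling and motility genes, 17 fell at the first step, 14 at the second and 19 over the span, with none higher. Their span median was -0.73, against 0.05 over all genes. Elmo1 (-3.35), Dock2 (-3.13), Rasgrp2 (-2.77) and the actin regulator Coro1a (-2.36) fell most. Of 11 desensitisation genes 10 fell over the span, led by Rgs1 (-4.83), Grk3 (-3.14), Rgs18 (-3.02) and Rgs2 (-2.78). Of 9 tested lipid and nucleotide receptors 8 fell, among them S1pr1, which guides cells into blood (-3.45), Lpar6 (-2.37), P2ry14 (-2.36) and Gpr132 (-2.15). Of 6 tested ligands, Cxcl2 (-1.99), Ccl9 (-0.96), Ccl3 (-0.93) and Ccl5 (-0.24) fell, and Cxcl1 (0.19) rose. Under either other scaling 3 ligands were lower and 2 higher. Of 3 tested enzymes of the lipid ligands, Hsd3b7 fell by 2.26, whereas Abhd16a (0.67) and Abhd12 (0.13) rose. Ccrl2, 1 of 2 other chemokine receptors tested, fell by 1.26. With arrays centred on their medians the falls over the span numbered 18 of 20 signalling and motility, 8 of 11 desensitisation and 7 of 9 lipid and nucleotide receptor genes, and after quantile normalization 20, 9 and 6.

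Between genotypes, none of the 4 tested receptors was called in the progenitors. The largest fitted difference over the stages was that of Cxcr2, which was lower in KO than in WT at each of the 3 stages, by -0.36, -0.34 and -0.27 from Pre MegE to CFU-E. Its fitted difference was -0.32 ± 0.0539 (SE, 95% interval -0.446 to -0.203, limma adjusted p = 0.091), with 0.14% of 10701 genes called. At a single stage Cx3cr1 reached -0.47, in Pre CFU-E cells. Cxcr2 was called without the Het Pre CFU-E array (limma adjusted p = 0.0495). Ccr1 was also lower in KO at all 3 stages (-0.55, -0.24 and -0.26), which was so for 9.24% of all genes. With all genes in the fit (0.0351% called) its difference was -0.35 (adjusted p = 0.514). All 9 neutrophil markers had negative differences, from -0.34 (Mmp8) to -0.17 (Mmp9), with 0 of 9 called, and their part was not tested. At an unadjusted p under 0.05, limma gave 1 receptor (Cxcr2) and 614 genes.

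For the other receptors KO minus WT was 0.10 for Gpr183 (95% interval -0.0628 to 0.271), -0.02 for Cxcr4 (-0.177 to 0.142) and -0.13 for Cx3cr1 (-0.347 to 0.0905). Het minus WT called 0 of 4 receptors (0.0374% of genes called), with Cxcr2 (-0.20) and Cxcr4 (-0.19) at an unadjusted p under 0.05. KO minus Het called 0 of 4 (0% of genes called), with Cxcr4 (0.17) at an unadjusted p under 0.05. No list of attractant receptors, ligands, enzymes, signalling or desensitisation genes held a called gene in KO against WT progenitors.

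In CD4+ DC, 5 receptors were higher and 4 lower in KO than in WT, with 1 array each and so no test. Cx3cr1 was 0.62 higher in KO (1.54-fold), P2ry10 0.42 (1.34-fold), Cxcr4 0.32 (1.24-fold) and Gpr183 0.04. Ccr6 had a difference of -0.55 (1.46-fold), Ccr9 -0.35 (1.27-fold) and Ccr2 -0.21. Of the 7 receptors at or above the median in DC, none reached 2-fold, where 0.313% of 10554 genes did, and 1 (Cx3cr1) reached 1.5-fold, where 2.53% did. At 1.25-fold there were 4 of 7 (Cx3cr1, P2ry10, Ccr6 and Ccr9), where 13.5% of genes were. Cxcr2 (-0.77) and Ccr1 (0.23) were below the median on both arrays. Beside the Cxcr2 value, the neutrophil list summed to 3580 in KO DC and 2002 in WT DC, with 2 and 3 of 9 genes at or above the median. In the DC pair, KO minus WT was 1.70 for Csf3r, -0.58 for S100a9 and 0.0040 for Mmp9. Csf3r had the highest DC mean of the list (10.39, with Mmp9 next at 8.62), so the gap between the sums rests mainly on this 1 gene.

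**Figure D4:**
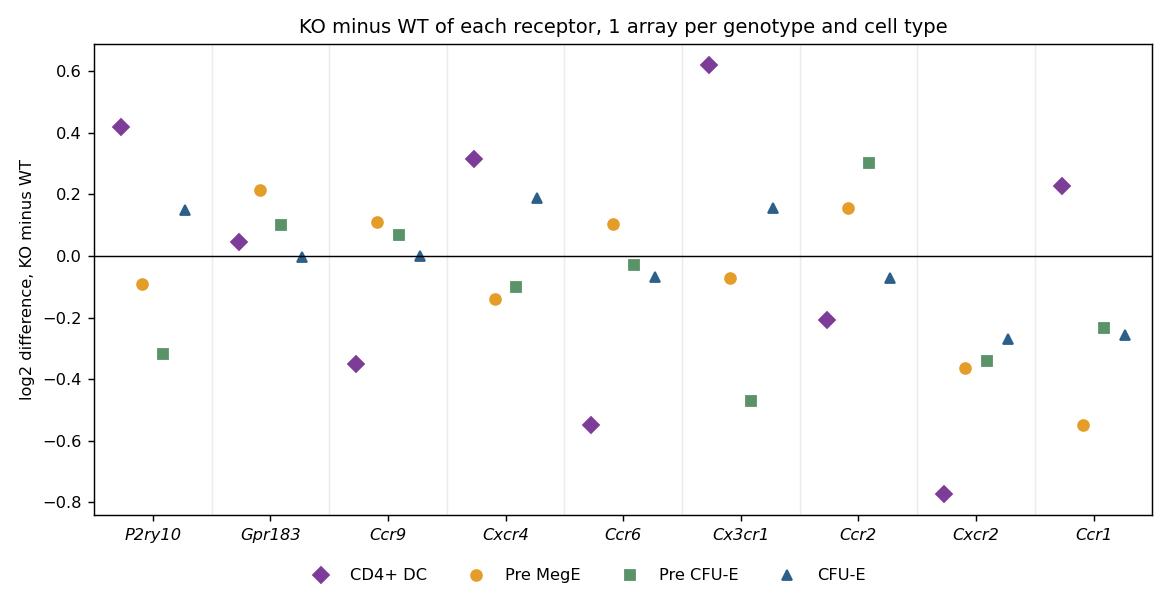
Log2 difference of KO and WT for each receptor in CD4+ DC and at the 3 progenitor stages, each point from 1 array per genotype. Cxcr2 is below 0 in all 4 cell types, and Cx3cr1 and Ccr6 have DC values on opposite sides of 0 (0.62 and -0.55).

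Whether the KO difference in DC departs from that in progenitors was tested in a fit over all 11 arrays in which each lone DC array is assumed to have the spread of the progenitor arrays. It called 1 of 8 receptors, Ccr6, with -0.55 ± 0.12 (SE, limma adjusted p = 0.0381), where 4.57% of 11560 genes were called and 3.01% were lower. KO minus WT of Ccr6 was 0.10, -0.03 and -0.07 at the 3 stages from Pre MegE to CFU-E. The call was lost with all genes in the fit (adjusted p = 0.0637, 2% of genes called), with an intensity trend in the variance (0.0536), or without any of the WT Pre MegE, WT Pre CFU-E, WT CFU-E, Het CFU-E or KO Pre MegE arrays (0.0601 to 0.113). Among B cell markers in the same fit, Cd22 (-1.18), Blk (-0.72) and Cd79a (-0.69) were lower and Ms4a1 (0.96) was higher. The part of B cells in the Ccr6 difference was not tested.

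Ccr9 (-0.41, adjusted p = 0.0512), Cxcr2 (-0.45, 0.0527) and Cx3cr1 (0.75, 0.0658) lay just outside the threshold. P2ry10 (0.51), Cxcr4 (0.33), Ccr2 (-0.34) and Gpr183 (-0.06) had adjusted p of 0.176 to 0.854. Among genes around the receptors, the same fit called Ccr3, the eotaxin receptor (-0.86, adjusted p = 0.0129), Cysltr1, the cysteinyl leukotriene receptor (-0.72, 0.00886), and Arrb1 (0.62, 0.0197). It also called Lpar1 (0.54, 0.0216), Cxcl2 (0.77, 0.0288) and Ccl5 (0.58, 0.0495). In the DC pair itself KO minus WT was -0.78 for Ccr3, -0.77 for Cysltr1 and 0.62 for Arrb1.

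Ccr9, Ccr1 and Ccr2 lie in a chemokine receptor cluster on chromosome 9 of GRCm38.p6 (Ccr9 at 123767211-123783457, Ccr1 at 123962126-123968692 and Ccr2 at 124101918-124109140). In the order of the chromosome, the difference of the DC mean and the progenitor mean was 3.65 for Ccr9, -0.02 for Cxcr6, 1.06 for Xcr1, -0.54 for Ccr1, 0.53 for Ccr1l1, 2.29 for Ccr3 and 1.50 for Ccr2. Ccr1 had the lowest of these differences and lies between Xcr1 and Ccr1l1, both of which had positive ones. The Ccr1 value is near the median of -0.59 over all genes tested, and it was not tested under the other scalings. The DC and progenitor means of Ccr1, Xcr1 and Ccr1l1 all lay below the array medians. Cx3cr1 (1.65) has Ccr8 (0.06) as its neighbour 23837 bases on. No test was made of these neighbours together.

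The genes most like each receptor over the 11 arrays were taken by Pearson r of log2 levels among 7555 genes that passed the filter and ranged over at least 1. Since all share the gap between DC and progenitors, most r are high and are given as descriptions. P2ry10 was closest to Plxnb2, Irak2 and Cd74 (0.9982 to 0.9984), Gpr183 to Lsp1, Satb1 and Zfp513 (0.9977 to 0.9988), and Ccr9 to Rgs3, Dse and Fam71a (0.9994 to 0.9995). Cxcr4 was closest to Rasgef1b, Map3k5 and Ston2 (0.9943 to 0.9948), Ccr6 to Mertk, Nr1h3 and Vstm4 (0.994 to 0.9946), and Cx3cr1 to Nectin1, Slc12a2 and Map3k2 (0.9828 to 0.9896). Ccr2 was closest to Lst1, Rp2 and Tspoap1 (0.9868 to 0.9874). The receptors without a DC peak had other companions: Cxcr2 was closest to Anxa1 (0.9915), Tfec (0.97) and Tmem65 (0.9674), and Ccr1 to Trem3 (0.9679), Clec5a (0.9538) and Olr1 (0.9418).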

How the data were processed

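Messenger RNA was labelled with the Ambion/Affymetrix WT Expression Kit, per the labels' protocols. The deposited table holds linear intensities for 11 arrays, made with RMA per the submitters' processing notes. No RMA version was found in the labels. That the scale is linear was read from array medians of 195.66 to 218.37. Here log2 was taken with no further scaling, and detection calls were not used.

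Of 29674 probe sets, 21780 had 1 gene symbol in the platform annotation, 1618 several and 6276 none listed. Only those with 1 symbol were named. Where several probe sets named the same gene (996 genes), the one of highest mean stood for it. Positions and promoters of all 9 receptors were matched by gene number to RefSeq tables of GRCm38.p6. The receptors and gene lists were chosen with earlier results of these data known.

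Differences were tested in R 4.3.3 with limma 3.58.1 (lmFit and eBayes, two-sided, Benjamini-Hochberg adjustment, threshold 0.05). The models were stage plus genotype on 9 progenitor arrays, cell type plus genotype on 11 arrays, and that model with an interaction. They were run on simulated arrays with known added differences, in which DC arrays were given the spread of the progenitor arrays. Such a run cannot check whether real DC arrays have that spread. Array-wise ranges and correlations are descriptions.

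Named besides the 9 receptors are Zbtb46, neighbouring chemokine receptor genes, the 3 most correlated genes of each receptor, and per list up to 4 called genes (3 for the DC pair) with the largest difference and 1 sign in every block. Ubac2, P2ry10b, genes named as not tested and the neutrophil, B cell, monocyte and macrophage markers were added after their values were seen. Alternatives were no filter, a stricter filter, median centring, quantile normalization, a variance trend, only the compared groups, and each array left out.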

Additional observations from a re-analysis of the deposited data

Results flagged for a closer look

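Ccr6 was picked out because the test of the difference itself passed: KO minus WT in CD4+ DC departed from that in progenitors by -0.55 (limma adjusted p = 0.0381), with both DC arrays above the median and all progenitor arrays below it. Its levels in DC were 7.99 in KO and 8.54 in WT. Ccr6 thus entered the fit only through the DC arrays, where it is high, and the spread behind the test is that between progenitor arrays, since each genotype has 1 DC array. With all genes in the fit the adjusted p was 0.0637, and over the alternatives that leave out an array the adjusted p ranged from 0.0288 to 0.113.

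Ccr1 was picked out because KO minus WT was 0.23 (0.2281 before rounding) in CD4+ DC and negative at each of the 3 progenitor stages (-0.55, -0.24 and -0.26). The difference was not tested in the filtered fit, as Ccr1 lay below the array median on all 11 arrays. With all genes in the fit it was 0.57 (adjusted p = 0.106).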

How the results depend on the processing

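The stage and DC differences of the called receptors kept their direction under every alternative run. With all genes in the fit 6 receptors in place of 3 were called for Pre CFU-E against Pre MegE, and 6 in place of 3 for CFU-E against Pre MegE, since Ccr1, Ccr2 and P2ry10 then entered. Leaving out each array in turn gave 1 to 2 receptors (1 with all arrays) for CFU-E against Pre CFU-E. Cx3cr1 was added there, and over the span, without the KO Pre CFU-E or the KO CFU-E array. Cx3cr1 was not tested without the WT or the Het Pre CFU-E array, through which alone it passed the filter. Leaving out an array gave 0 to 1 (0 with all) for KO against WT progenitors, where Cxcr2 was added without the Het Pre CFU-E array. It gave 4 to 8 (8 with all) for DC against progenitors and 4 to 8 for DC against Pre MegE, with 4 when either DC array was left out, as Ccr2, Ccr6, Ccr9 and P2ry10 then failed the filter by construction.

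The KO difference in DC against progenitors called 1 receptor, but 0 with all genes in the fit or with an intensity trend (7 and 6 at an unadjusted p under 0.05), 2 with the stricter filter (Ccr9 added), 3 with arrays centred (Ccr9 and Cxcr2 added), 3 after quantile normalization (Cx3cr1 and Cxcr2 added) and 0 to 4 with an array left out, 4 being without the KO CFU-E array. The cause was not tested.

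Over all genes, KO against WT progenitors called 15, 7 without the filter and 1 to 26 with an array left out. Het against WT called 4, with 1 without the filter or with only the 2 groups fitted, 0 with the stricter filter and 1 to 5 with an array left out. The KO difference in DC against progenitors called 528 genes, 1135 after quantile normalization and 201 to 823 with an array left out. Genes called higher and lower numbered 3965 and 3134 for Pre CFU-E against Pre MegE (5045 and 2522 centred), 4443 and 3759 for CFU-E against Pre MegE (5696 and 3085 centred), 2928 and 7463 for DC against progenitors (4671 and 5512 after quantile normalization), 2606 and 7600 for DC against Pre MegE (4402 and 5405), and 180 and 348 for the KO difference in DC against progenitors (513 and 622). An alternative with other probe sets was not run, since each receptor has 1. Stages were compared with genotype as a term in the fit. No replicate block could be added, because the labels carry no replicate numbers.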
